A study of Mus musculus with 9 samples.

Results

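Motile cilia are the beating cell projections that multiciliated ependymal cells use to move cerebrospinal fluid. The genes described here were chosen by symbol from the deposited table of mouse neural stem cell cultures. They were the numbered Dnah, Dnai, Rsph and Cfap genes, together with Foxj1, Rfx2, Rfx3, Mcidas, Ccdc153, Tmem212, Dynlrb2 and Dnali1. The rule found 57 genes of 54232 in the table, none of them a Dnai gene. Of these, 44 passed the filter on low counts that 17602 genes of the table passed, and 13 did not.

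The cultures were primary embryonic neural stem cells labelled as from the subventricular zone, kept on laminin-coated dishes in medium with FGF and EGF. Treatment was with a control short hairpin RNA aimed at no mouse gene (shNT) or with a hairpin against the histone demethylase gene Phf2 (sh900 or sh902), and RNA was taken 3 days later. Each of the 3 groups held 3 libraries, 1 whose title had no date, 1 dated 30 August and 1 dated 3 September. No label states what a date marks or whether the libraries of a group are separate cultures. The p-values therefore describe library-to-library spread, part of which could be technical. Strain and age of the source animals are not stated in the labels.

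The motile axoneme is a ring of doublet microtubules around a central pair. Outer and inner dynein arms, built on heavy chains of the Dnah family, slide the doublets, radial spokes (Rsph genes) carry signals from the central pair, and many Cfap proteins sit inside or on the doublets. Foxj1 and the RFX factors switch on these genes, while Mcidas with Gmnc starts the multiciliated programme. Cells of the subventricular zone stem cell lineage usually carry a single primary cilium, which is built by intraflagellar transport but lacks dynein arms.

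Promoter windows from RefSeq (GRCm38.p6, 250 bases before to 50 bases after a gene's start) were found for 45 of the 57 genes. They were searched on both strands for the RFX half-site GTTGCC and the forkhead core TGTTTAC, 2 motifs that share no full match. The RFX half-site stood in the windows of 16 of the 45 genes (35.6%), against 14.1% of all genes in the table. The forkhead core stood in 3 of the 45 (6.67%), against 4.05% of all genes. A match is a description of letters and no evidence of binding. The windows below are shown because 2 belong to genes that rose with the hairpins (Ccdc153 and Cfap52), 1 to the gene with the largest difference between dates (Dnah6) and 1 to the gene with the most half-sites (Cfap298). Capitals mark the RFX half-site on either strand. The Ccdc153 window is chr9:44240427-44240726 on the plus strand. The others are on the minus strand, at chr11:67965593-67965892 for Cfap52, chr6:73221582-73221881 for Dnah6 and chr16:90934800-90935099 for Cfap298.
Ccdc153: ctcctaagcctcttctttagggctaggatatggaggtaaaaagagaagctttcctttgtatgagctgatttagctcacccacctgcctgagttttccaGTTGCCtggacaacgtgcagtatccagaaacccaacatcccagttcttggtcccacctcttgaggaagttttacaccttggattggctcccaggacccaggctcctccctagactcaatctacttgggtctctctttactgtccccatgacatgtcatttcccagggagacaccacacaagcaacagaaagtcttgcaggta
Cfap298: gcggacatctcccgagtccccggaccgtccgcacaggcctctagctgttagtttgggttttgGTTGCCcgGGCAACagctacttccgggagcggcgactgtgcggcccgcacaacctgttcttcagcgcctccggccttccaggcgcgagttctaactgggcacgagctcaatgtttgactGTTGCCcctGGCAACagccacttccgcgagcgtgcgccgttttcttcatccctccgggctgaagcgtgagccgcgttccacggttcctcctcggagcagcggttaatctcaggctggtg
Cfap52: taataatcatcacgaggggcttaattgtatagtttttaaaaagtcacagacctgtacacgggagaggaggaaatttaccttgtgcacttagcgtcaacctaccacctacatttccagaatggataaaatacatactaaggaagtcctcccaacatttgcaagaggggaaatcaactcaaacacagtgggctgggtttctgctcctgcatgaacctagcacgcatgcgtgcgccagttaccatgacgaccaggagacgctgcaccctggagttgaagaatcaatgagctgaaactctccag
Dnah6: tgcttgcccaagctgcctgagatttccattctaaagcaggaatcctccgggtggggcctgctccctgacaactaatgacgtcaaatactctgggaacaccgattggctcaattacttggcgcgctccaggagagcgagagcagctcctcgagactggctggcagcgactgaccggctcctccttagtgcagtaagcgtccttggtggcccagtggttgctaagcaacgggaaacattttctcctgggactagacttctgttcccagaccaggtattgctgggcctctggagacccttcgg

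In these letters Ccdc153 has 1 half-site and Cfap298 has 4, in facing pairs. Neither motif is in the windows printed for Cfap52 and Dnah6.

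Values below are library-size normalised counts (CPM) scaled by TMM factors, from libraries of 23212472 to 32392496 estimated counts. Phf2 lay at 48.6 to 56.2 CPM in the controls and at 14.9 to 28.1 CPM in the 6 hairpin libraries, so no library went against its label. The cultures also differed in ways the hairpins do not explain. Among the controls, Gfap of astrocytes was 8.76 CPM in the 30 August library, 609 CPM in the undated one and 1375 CPM in that of 3 September, while the proliferation marker Mki67 was 868, 291 and 60.0 CPM. The summed level of 8 cycling cell markers was 173 to 2497 CPM in the controls, 595 to 1150 CPM with sh900 and 809 to 1433 CPM with sh902.

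The label of these genes as ependymal was checked against the genes that define ciliated ependymal cells. Foxj1 was abundant, but several genes that define or start the multiciliated programme were close to 0. Mcidas, which starts that programme, had 6 counts over all 9 libraries, and its partner Gmnc reached 0.0964 CPM at most. Cdc20b and Sntn, found in cells making or bearing many cilia, had no count in any library, where a count of 0 allows up to 0.129 CPM in the shallowest library (a limit of 3 counts, covering counting error only). Deup1, which acts in the mass production of centrioles, reached 0.109 CPM. Ccno, which acts in the same step, was measured at 1.67 to 5.29 CPM. The ependymal marker Tmem212 had 2 counts, both in the undated control. Some other ependymal markers had counts in all 9 libraries. They were Ccdc153 (0.114 to 6.02 CPM), Rsph1 (1.02 to 6.10 CPM), Cfap126 (0.335 to 3.26 CPM) and Dynlrb2 (0.675 to 1.70 CPM). The summed level of all 57 genes was 485 to 683 CPM, of which the 7 genes at or over 20 CPM on average made up most. The other 50 genes together came to 69.5 to 188 CPM. The genes are therefore called motile cilia genes below, and no library is described as containing ependymal cells.

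**Figure D1:**
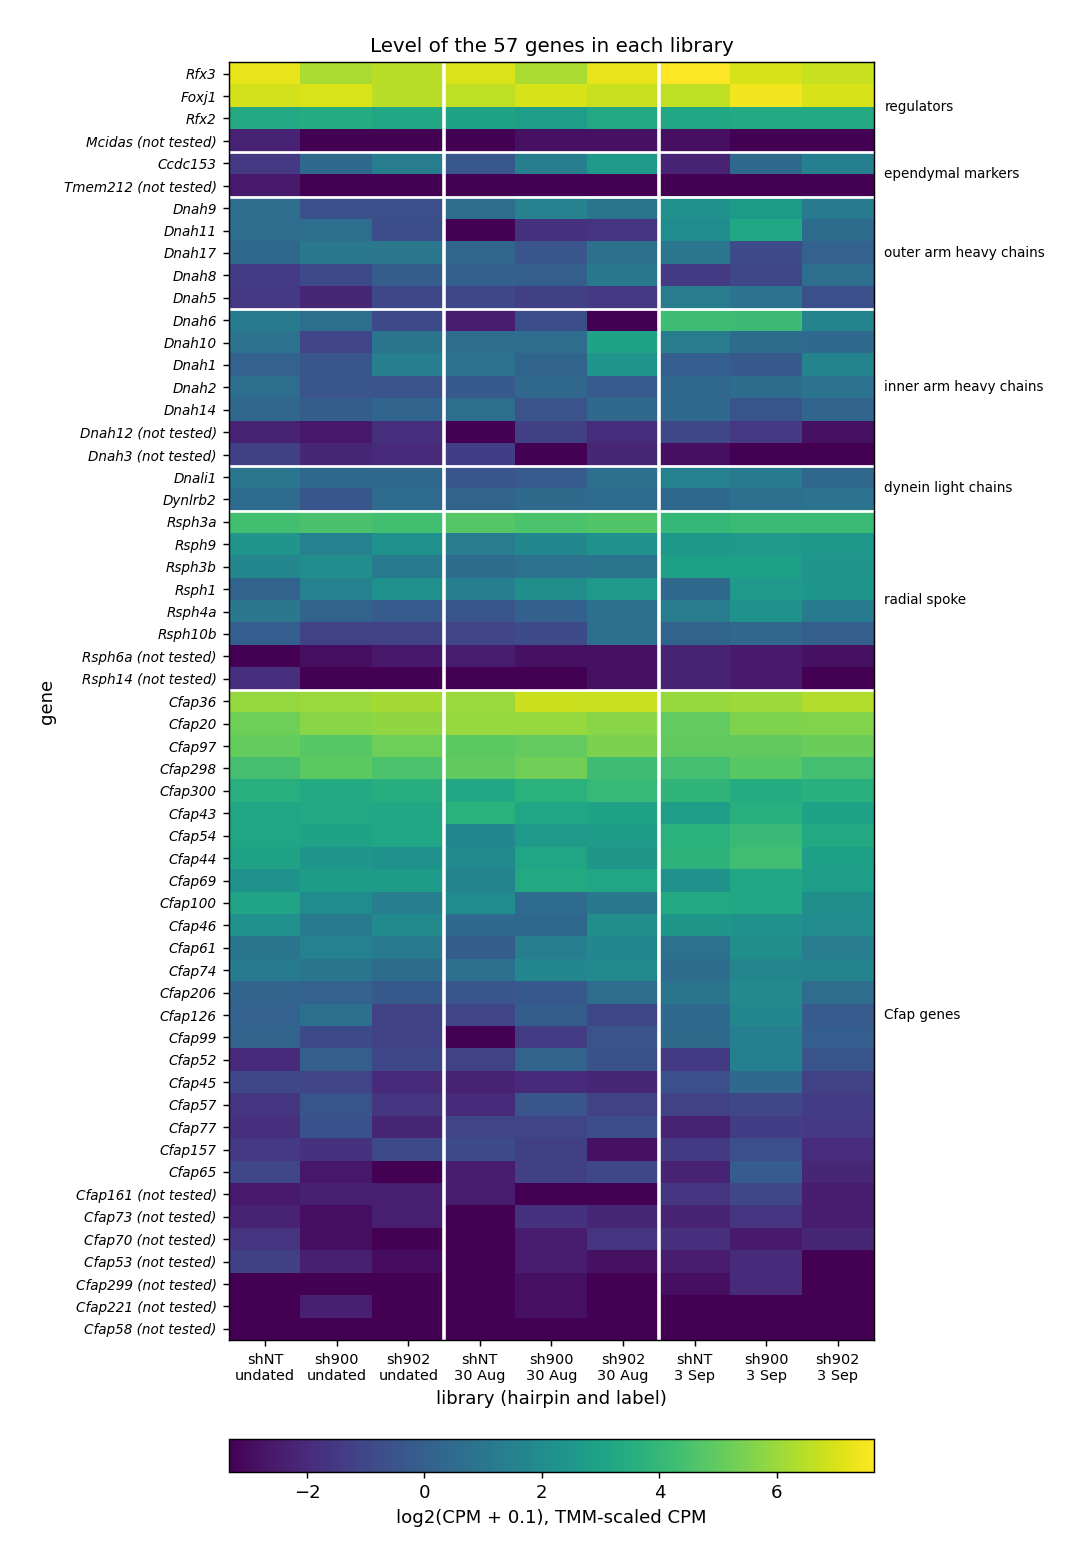
Level of each of the 57 genes (rows, by role and by mean level) in each of the 9 libraries (columns, by date label and hairpin), as log2(CPM + 0.1) on a colour scale. Foxj1, Rfx3, Cfap36 and Cfap20 are bright in every library, most dynein heavy chains are at or near 1 CPM, and 13 genes are marked as not tested.

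Per kilobase of exon, Foxj1 was the highest of the 57 genes at 45.4 CPM per kb, above 94.6% of the genes tested. It was followed by Cfap36 at 27.8, Cfap298 at 16.2, Rfx3 at 11.3 and Cfap20 at 11.1 CPM per kb. Cfap20 and Cfap36 are not restricted to motile cilia: Cfap36 binds the small GTPase Arl3, which acts in primary cilia too, and Cfap20 lies on doublets of both kinds of cilium. The 10 tested heavy chains lay between 0.0318 CPM per kb for Dnah8 and 0.376 CPM per kb for Dnah6. Both tested dynein light chains were higher per length, at 2.28 CPM per kb for Dynlrb2 and 0.696 CPM per kb for Dnali1. The 13 genes that did not pass the filter were Mcidas, Tmem212, Dnah3, Dnah12, Rsph6a, Rsph14, Cfap53, Cfap58, Cfap70, Cfap73, Cfap161, Cfap221 and Cfap299. Cfap58 had no count in any library, and 5 of the 57 genes, Cfap58 among them, had under 10 counts in all.

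The first question was whether lowering Phf2 changed these genes. For the mean of both hairpins, Ccdc153, Rsph1 and Cfap52 of the 44 genes tested were called higher once the date label was in the model, none was called lower, and the regulators did not pass the test. With single hairpins Cfap52 passed for sh900 alone, and Dnah6 was lower with sh902. The main model, with hairpin group alone, called 0 of the 44 for the mean of both hairpins against shNT. It also called 0% of all 17602 genes at an adjusted p under 0.05 (edgeR's quasi-likelihood test with Benjamini-Hochberg adjustment). Phf2, the target of the hairpins, was not called by it either, with a log2 fold change of -1.28 ± 0.20 and an adjusted p of 0.18. The lack of calls in that model therefore does not show that no gene changed. In that model 6 of the 44 (Ccdc153, Rsph1, Cfap52, Cfap69, Cfap61 and Rfx3) had an unadjusted p under 0.05. So did 2809 of all 17602 genes, so nothing is read from that count. DESeq2 on the same design called 4 higher, and limma-voom called 0.

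With the date label as a block, the same test called 3 of the 44 higher and 0 lower. Of all genes tested, 6.08% were called higher and 5.59% lower. The median log2 fold change of the 44 was 0.07, and that of all genes was -0.02. The share called higher is close to the background, so the results concern single genes. This block also joins the 3 undated libraries, which share only the absence of a date. Blocking the 6 dated libraries alone called 0 of the 44 and 1 of all genes, and it made none of the single-hairpin calls below either. Values below come from the blocked fit unless the text says otherwise.

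Regulators of the ciliary programme came first in order of action. Foxj1 (ENSMUSG00000034227, chr11:116330704-116335399, minus strand) was 121, 96.3 and 96 CPM in the controls, in the order undated, 30 August, 3 September. With sh900 it was 129, 126 and 178 CPM in that order, and with sh902 92.2, 106 and 126 CPM. The groups overlap, and the log2 fold change was 0.24 ± 0.15 (SE) for the mean of both hairpins, with an adjusted p of 0.34. Rfx3, a factor of both primary and motile cilia, was 155, 134 and 201 CPM in the controls. It was 75.8, 75.8 and 128 CPM with sh900 and 92.3, 153 and 106 CPM with sh902. Of the 6 hairpin libraries, 5 lay below the control of their label and the 30 August sh902 library lay above it. The log2 fold change of Rfx3 was -0.65 ± 0.20, with an adjusted p of 0.078, which misses the threshold. Rfx2 ranged from 6.93 to 11.1 CPM over the 9 libraries, and its log2 fold change was 0.08 ± 0.18.

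Ccdc153, a coiled-coil gene used as an ependymal marker in brain surveys, showed the largest rise. It is ENSMUSG00000070306, at chr9:44240676-44247306 on the plus strand, and no other annotated gene shares its exons. The controls, again in the order undated, 30 August, 3 September, lay at 0.255, 0.692 and 0.114 CPM, which were 7, 18 and 3 counts. With sh900 it was 1.22, 2.49 and 1.17 CPM, and with sh902 it was 2.34, 6.02 and 2.53 CPM. All 6 hairpin libraries lay above all 3 controls, and within each label sh902 was above sh900. Its log2 fold change was 2.87 ± 0.34 for the mean (adjusted p 0.0052), 2.31 ± 0.37 for sh900 (0.013) and 3.42 ± 0.37 for sh902 (0.0055). For the mean and for sh902 the call held when any 1 of the 9 libraries was left out. For sh900 it was lost without the undated control, the undated sh900 or the 30 August sh900 library, with an adjusted p of up to 0.077. The difference between the hairpins was 1.11 ± 0.31 with an adjusted p of 0.087. Since only 1 control reached the filter level of 0.376 CPM, the gene passed the filter through the hairpin libraries. Other genes listed as ependymal but no cilium part did not move with it. Of the 8 tested, 0 were called higher and 4 lower (Aqp4, Nnat, Prom1 and Gja1). The list shares S100b, Aqp4 and Gja1 with the astrocyte markers counted below. Its summed level was 1073 to 5507 CPM in the controls and 680 to 2184 CPM in the hairpin libraries. The part of this level in the Ccdc153 result was not tested.

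Radial spoke genes were led by Rsph1, a spoke head protein needed for normal ciliary beating. Rsph1 (ENSMUSG00000024033, chr17:31255019-31277383, minus strand) was 1.02, 2.46 and 1.26 CPM in the controls, in the same order. It was 2.70, 4.16 and 6.05 CPM with sh900 and 4.38, 6.10 and 5.26 CPM with sh902. Every hairpin library was above every control, the nearest pair being the undated sh900 library and the 30 August control. On the log2 scale the rise was 1.63 ± 0.30 for the mean (adjusted p 0.016), 1.46 ± 0.34 for sh900 (0.036) and 1.79 ± 0.33 for sh902 (0.019). Leaving out the undated control, the undated sh902 or the 3 September control ended the call for the mean, with an adjusted p of up to 0.10. Over all 9 omissions the fold change stayed between 1.36 and 1.98. For the single hairpins the call held in 2 of 9 omissions for sh900 and in 5 of 9 for sh902.

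None of the other 5 radial spoke genes tested passed the test for either hairpin. Rsph9 and Rsph4a, which also belong to the spoke head, had log2 fold changes of 0.03 ± 0.28 and 0.05 ± 0.45 for the mean of both hairpins. Rsph3a and Rsph3b, a pair of close copies on chromosome 17 whose reads RSEM may split between them, had 0.03 ± 0.13 and -0.04 ± 0.24. Rsph10b had -0.12 ± 0.53.

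Of the 22 Cfap genes tested, Cfap52 was the 1 called. Cfap52 (ENSMUSG00000020904, chr11:67924806-67965651, minus strand) encodes a protein inside the doublet microtubules. It was 0.146, 0.346 and 0.267 CPM in the controls, 0.900, 1.03 and 2.53 CPM with sh900, and 0.426, 0.555 and 0.622 CPM with sh902, in the order undated, 30 August, 3 September. The groups do not overlap, although no control had more than 9 counts and none reached the filter level. The log2 fold change was 1.78 ± 0.42 for the mean (adjusted p 0.033) and 2.46 ± 0.45 for sh900 (0.019). For sh902 it was 1.09 ± 0.47, with an adjusted p of 0.17. The call for the mean held in only 2 of 9 omissions, those of the 30 August control and the 30 August sh900 library, and that for sh900 in 4. An antisense transcript, 9130017K11Rik, shares 8.36% of the Cfap52 exon bases. It reached 0.152 CPM at most, beside 0.146 to 0.346 CPM for Cfap52 in the controls. Its part in the Cfap52 counts was not tested.

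Cfap69 and Cfap61 also had every hairpin library above every control, without passing the test. Cfap69, a protein of sperm and olfactory cilia, was 2.92 to 4.89 CPM in the controls and 6.54 to 9.94 CPM in the hairpin libraries. Its log2 fold change was 0.91 ± 0.26 with an adjusted p of 0.061. Cfap61, part of the calmodulin and spoke complex at the base of the radial spokes, was 0.845 to 1.82 CPM in the controls and 2.19 to 4.25 CPM in the hairpin libraries. Its log2 fold change was 1.02 ± 0.34 with an adjusted p of 0.092. With Ccdc153, Rsph1 and Cfap52 these made 5 of the 44 genes tested whose 6 hairpin libraries lay wholly above the 3 controls, beside 3.38% of all genes tested. Ccdc153 and Cfap52 entered the 44 through the hairpin libraries, so nothing is read from that count. None of the 44 had them wholly below, against 3.02% of all genes. Compared within labels, 6 of the 44 were above their control in 6 of 6 hairpin libraries, a share of 13.6% beside 12.9% of all genes. Another 2 of the 44 (4.55%), Cfap100 and Dnah14, were below it in 6 of 6, beside 12% of all genes.

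No abundant Cfap gene passed the test. Cfap36, above the control of its label in 6 of 6 hairpin libraries, was 60.4 to 63.5 CPM in the controls and 63.4 to 110 CPM in the hairpin libraries, with a log2 fold change of 0.39 ± 0.14 and an adjusted p of 0.12. Its high values were those of both 30 August hairpin libraries, at 110 and 106 CPM. Cfap20 had 0.29 ± 0.15 and Cfap97 0.14 ± 0.12. Cfap298, needed for assembly of dynein arms, had 0.12 ± 0.16. An unspliced transcript on the opposite strand, Gm49727, covers 44.2% of the Cfap298 exon bases, and no source used here says that strand was kept. Cfap300 had 0.06 ± 0.19 and Cfap43 -0.01 ± 0.23. Among the scarcer Cfap genes with the largest changes, Cfap57 had 0.70 ± 0.46 and Cfap77 0.67 ± 0.54. Cfap57 averaged 0.238 CPM in the controls, 0.549 CPM with sh900 and 0.282 CPM with sh902. Only the 3 sh900 libraries reached the filter level, so Cfap57 passed the filter through the group where it was high. Cfap77 reached that level in 1 library of each group.

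In the other direction, Cfap100 lay below the control of its label in 6 of 6 hairpin libraries. It was 8.39, 3.96 and 9.94 CPM in the controls, 3.95, 1.35 and 9.38 CPM with sh900, and 2.5, 2.05 and 4.31 CPM with sh902. The 3 September sh900 library was nearly level with its control. The log2 fold change was -1.07 ± 0.29 with an adjusted p of 0.052, which misses the threshold.

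**Figure D2:**
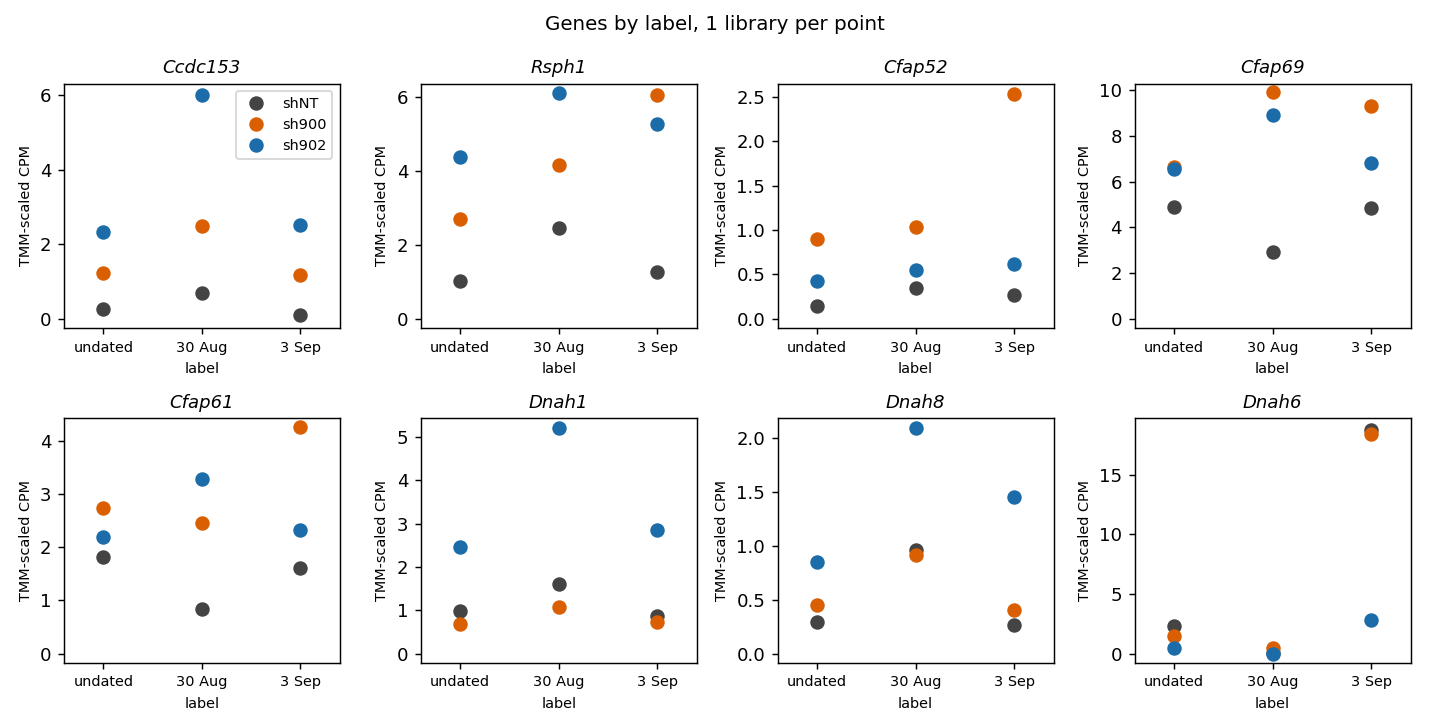
TMM-scaled CPM (vertical axes, linear from 0) of 8 motile cilia genes by date label (horizontal axes), 1 point per library, coloured by hairpin. For Ccdc153, Rsph1, Cfap52, Cfap69 and Cfap61 the control (dark) is the lowest point in every label. For Dnah1 only sh902 stands above the control, and Dnah6 is highest in the control and sh900 libraries of 3 September.

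For the single hairpins, 3 of the 44 genes were called higher and 0 lower with sh900, and 4 higher and 1 lower with sh902. All genes gave 5.39% higher and 3.45% lower with sh900, and 5.12% higher and 5.39% lower with sh902. Both comparisons use the same 3 controls. The genes called with sh900 were Ccdc153, Cfap52 and Rsph1, and those called higher with sh902 were Ccdc153, Rsph1, Dnah1 and Dnah8. Dnah6 fell with sh902. When the blocked fit held only the groups compared, none of these calls remained: the adjusted p of Ccdc153 was 0.0535 with sh900 and 0.0633 with sh902. Rfx3 was then the single gene of the 44 called, lower with sh900 (log2 fold change -0.84, adjusted p 0.0486).

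Inner arm heavy chains behaved differently from each other with sh902. Dnah1 (ENSMUSG00000019027, chr14:31260375-31323896, minus strand), whose loss causes malformed sperm tails, was 0.985, 1.61 and 0.876 CPM in the controls, again from undated to 3 September. It was 0.675, 1.07 and 0.733 CPM with sh900 and 2.47, 5.21 and 2.86 CPM with sh902. Every sh902 library stood above all 6 others, while each sh900 library lay below the control of its label. For Dnah1 the log2 fold change was 1.57 ± 0.27 for sh902 (adjusted p 0.015) and -0.47 ± 0.28 for sh900 (0.33). Between the hairpins the difference was 2.04 ± 0.28 with an adjusted p of 0.020, and Dnah1 was the only one of the 44 called there. Of all genes, 1.74% were called higher and 2.48% lower with sh902 than with sh900. The sh902 call held in 5 of 9 omissions and the difference between hairpins in 4 of 9. An antisense gene shares 4.22% of the Dnah1 exon bases, and it reached 0.343 CPM at most.

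Dnah6 (ENSMUSG00000052861, chr6:73017606-73221651, minus strand), another inner arm heavy chain, was 2.30, 0.0768 and 18.8 CPM in the controls. With sh900 it was 1.45, 0.515 and 18.4 CPM, and with sh902 it was 0.457, 0 and 2.86 CPM. Thus sh902 was below the control in each label, but values of the controls themselves ran from 2 counts to 493. The log2 fold change for sh902 was -2.45 ± 0.57 with an adjusted p of 0.037, and for sh900 it was 0.18 ± 0.51. The call held in 3 of 9 omissions. The remaining inner arm heavy chains that were tested, Dnah2, Dnah10 and Dnah14, passed for neither hairpin. Dnah10 was 7.81 CPM in the 30 August sh902 library and 0.386 to 2.4 CPM in the 8 others. Dnah14 was below the control of its label in 6 of 6 hairpin libraries, with a log2 fold change of -0.54 ± 0.27 for the mean and an adjusted p of 0.24.

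Among the outer arm heavy chains, Dnah8 rose with sh902. Dnah8, mainly a sperm gene, was 0.292, 0.960 and 0.267 CPM in the controls, 0.450, 0.910 and 0.403 CPM with sh900, and 0.852, 2.09 and 1.45 CPM with sh902. The sh902 values overlap the controls, because the undated sh902 library lies under the 30 August control. Dnah8 had a log2 fold change of 1.64 ± 0.39 with sh902, with an adjusted p of 0.038, and 8 of the 9 omissions ended the call. It held without the 30 August control alone. Only 1 control reached the filter level, so Dnah8, like Ccdc153 and Cfap52, passed the filter through the hairpin libraries. Dnah5 and Dnah9, the main outer arm motors of airway and ependymal cilia, had -0.65 ± 0.52 and -0.31 ± 0.40 for the mean of both hairpins. Dnah11 had -0.04 ± 0.59 and Dnah17 -0.30 ± 0.45. The light chains Dnali1 and Dynlrb2 had -0.26 ± 0.40 and 0.07 ± 0.30.

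**Figure D3:**
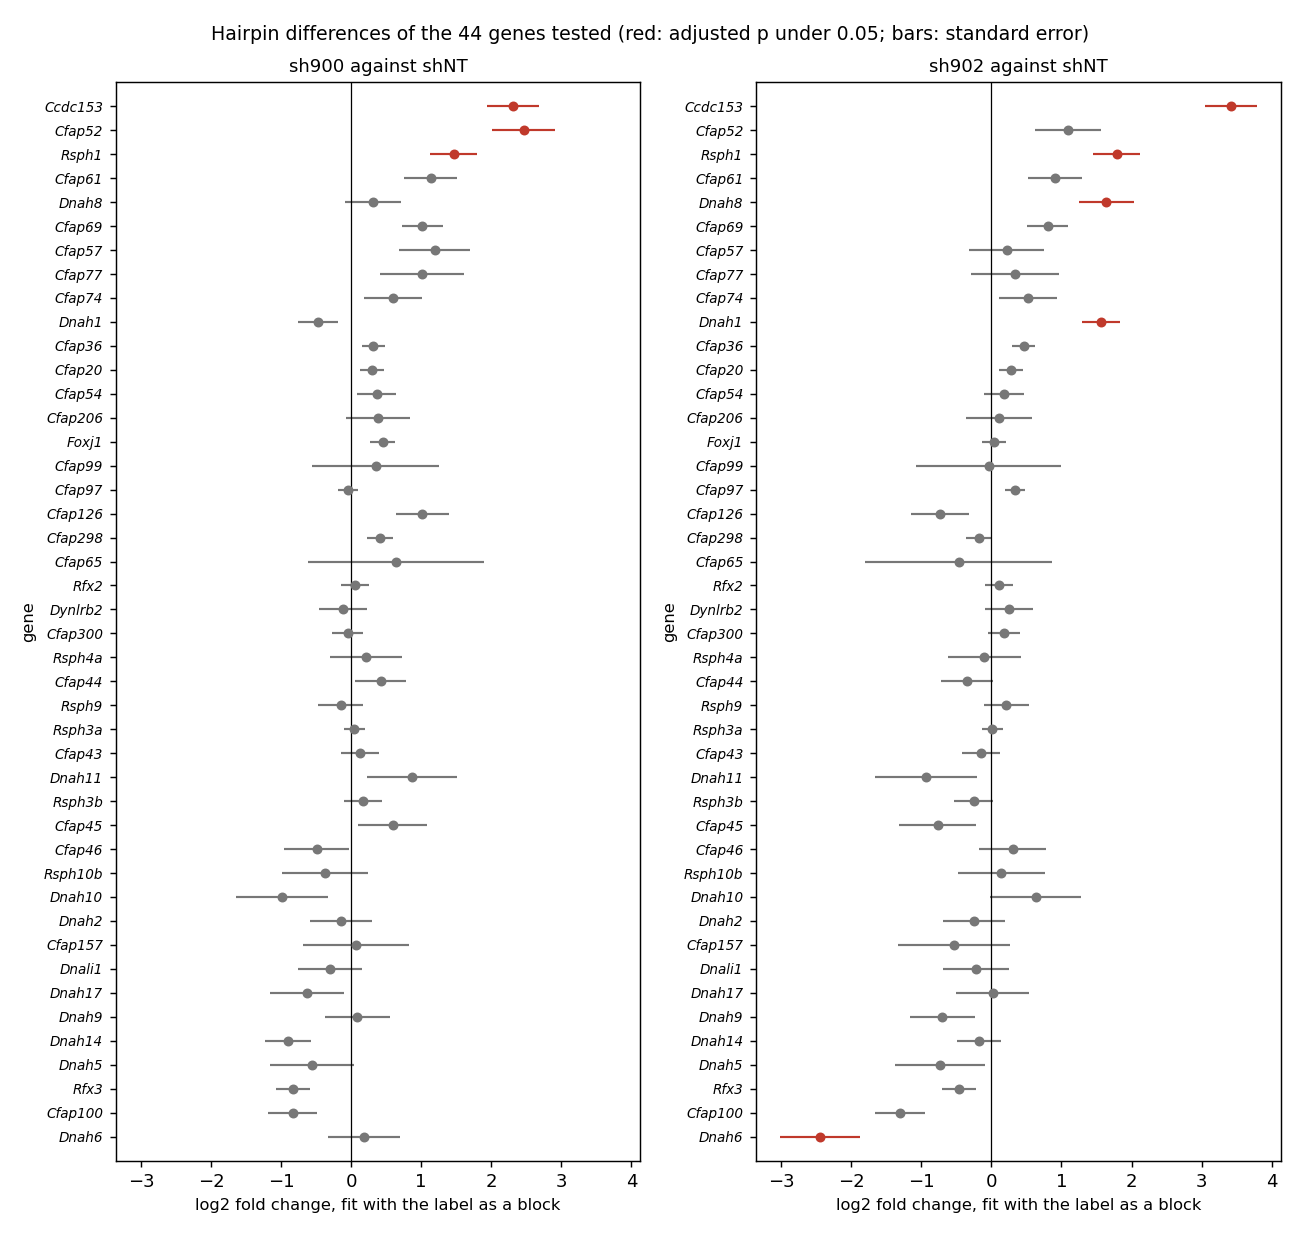
Log2 fold change (horizontal axes) of the 44 tested genes (vertical axes, ordered by the mean of both hairpins) for sh900 and for sh902 against shNT, from the blocked fit; bars are standard errors and red marks an adjusted p under 0.05. Ccdc153 and Rsph1 are red in both panels, Cfap52 with sh900, and Dnah8, Dnah1 and Dnah6 with sh902.

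The second question was how these genes differ between the dated cultures. The heavy chains Dnah6, Dnah11 and Dnah5, the spoke gene Rsph3b and 4 Cfap genes were lower with the 30 August label than with that of 3 September. In the additive model of group and label, 8 of the 44 genes were lower with 30 August and 2 were higher. All genes gave 10.4% lower and 10.1% higher. The median log2 difference of the 44 was -0.27, beside 0.02 for all genes. In 11 of the 44 genes every 3 September library was above every 30 August library, against 16.1% of all genes. The reverse held for 3 (Cfap20, Cfap77 and Rsph3a), against 14.6% of all genes. Dnah11 and Cfap45 stayed under the filter level of 0.376 CPM in every 30 August library. They entered the 44 through the other labels. Dnah6 and Dnah5 did so in large part, since on 30 August Dnah6 reached that level only with sh900 and Dnah5 only in the control. Nothing is therefore read from these counts.

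Dnah6 had the largest label difference. With the 3 hairpin groups in the order shNT, sh900, sh902, it was 0.0768, 0.515 and 0 CPM on 30 August and 18.8, 18.4 and 2.86 CPM on 3 September. The undated library lay in between in each group. The log2 difference was -6.09 ± 0.64 with an adjusted p of 0.0014, and the call held in 9 of 9 omissions. On 30 August only the sh900 library reached the filter level, so Dnah6 passed the filter largely through the other labels. Dnah11, an outer arm heavy chain tied to left-right patterning, was 0, 0.198 and 0.213 CPM on 30 August and 3.96, 9.27 and 1.37 CPM on 3 September. No 30 August library reached the filter level, so Dnah11 passed the filter through the other labels. Its log2 difference was -4.90 ± 0.80 (adjusted p 0.0065), and it was lost only without the 30 August sh900 library (adjusted p 0.056). Its exons share 4.44% of their bases with Cdca7l on the other strand, whose own label difference of 1.0 had the opposite sign and an adjusted p of 0.45.

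Rsph3b, one of the spoke stalk copies, was 1.38, 1.66 and 1.75 CPM on 30 August and 7.35, 7.22 and 5.18 CPM on 3 September. The log2 difference was -2.02 ± 0.28 (adjusted p 0.0036), and it held in 9 of 9 omissions. Its copy Rsph3a went the other way, with 27.0, 23.4 and 25.2 CPM against 15.7, 18 and 17.7 CPM. The difference of Rsph3a was 0.56 ± 0.15 with an adjusted p of 0.034, and none of the 9 omissions kept that call. Because counts of the copies were divided by a model, their opposite directions are uncertain. An antisense gene shares 9.89% of the Rsph3a exon bases.

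The other genes lower with 30 August were Cfap45 (-2.26 ± 0.54), Dnah5 (-2.15 ± 0.62), Cfap100 (-1.72 ± 0.36), Cfap126 (-1.55 ± 0.41) and Cfap54 (-1.35 ± 0.29). Cfap45 and Cfap126 lie in or on the doublets, and Cfap54 belongs to the central pair. Their calls held in 4, 2, 7, 3 and 7 of 9 omissions respectively. Cfap45 was at 0.115 to 0.158 CPM on 30 August, so it too passed the filter through the other labels. Dnah5 reached the filter level on 30 August only in the control, at 0.423 CPM. Ccdc153 was higher with 30 August by 1.42 ± 0.34 (adjusted p 0.023), a call that held in 4 of 9 omissions. Foxj1 and Rfx3 did not pass, with -0.26 ± 0.18 and -0.26 ± 0.24. Markers of other cell types moved with the same labels. With 30 August, 6 of 8 astrocyte markers, 5 of 7 neuroblast markers and 3 of 6 oligodendrocyte precursor markers were called lower, and none was called higher. The summed oligodendrocyte precursor markers did not follow these calls in every group. On 30 August they were 2981 CPM with shNT, 3091 with sh900 and 1267 with sh902, against 2463, 2300 and 2005 CPM on 3 September. Genes listed as ependymal but no cilium part gave 5 lower and 0 higher of 8. That list shares S100b, Aqp4 and Gja1 with the astrocyte markers. Mural and fibroblast markers gave 3 lower and 0 higher of 5. Not all lists fell: neural stem cell markers gave 2 higher and 2 lower of 7. Choroid plexus markers gave 1 higher and 1 lower of 5, and endothelial markers 1 higher and 0 lower of 2. Cycling cell markers gave 0 of 8. The part of these cell types in the label difference of the cilia genes was not tested. In bulk RNA, fewer cells of a type and less RNA per cell cannot be told apart.

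**Figure D4:**
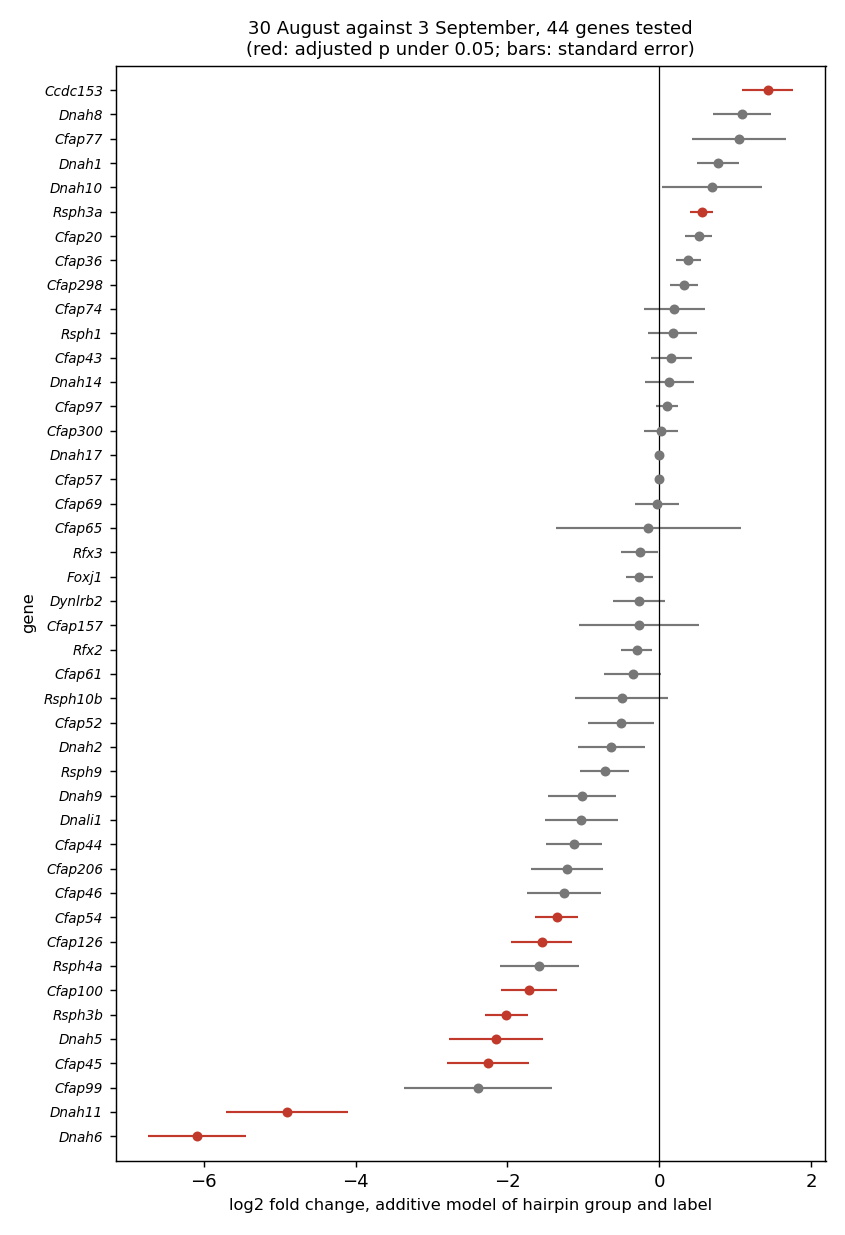
Log2 difference between libraries of 30 August and 3 September (horizontal axis) for the 44 tested genes (vertical axis, in order of the difference), with standard errors except where the difference was under 0.005, and red for an adjusted p under 0.05. Dnah6 and Dnah11 stand farthest to the left, and the 2 red points on the right are Ccdc153 and Rsph3a.

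Whether the hairpin effect differed between these dates was tested directly. Of the 44 genes, 0 were called by edgeR, beside 1.39% of all genes. At an unadjusted p under 0.05 there was 1, Cfap99, beside 1408 of all 17602 genes. DESeq2 and limma-voom also called 0 of the 44. This test treated the sh900 and sh902 libraries of a label as replicates of each other. With a single control per label the estimate rests on 3 residual degrees of freedom, all from differences between sh900 and sh902. Where the hairpins differ, as for Dnah1, that difference counts as error. The absence of calls therefore does not show that the hairpin effect was equal on both dates. Over the same libraries 7 of 8 cycling cell markers were called, all with a hairpin effect that was more negative on 30 August (Top2a by -4.49 ± 0.42).

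The wider ciliary gene lists give the surroundings of these changes for the mean of both hairpins, where 6.08% of all genes were called higher and 5.59% lower. Among 82 other motile cilia genes, 56 were tested, and 2 were called higher and 0 lower. They were Lrriq1 (1.37 ± 0.32) and Fam183b (1.54 ± 0.40), whose median log2 fold change as a list was 0.14. Of 11 dynein arm assembly factors and 16 multiciliated cell regulators, 0 were called. Intraflagellar transport genes, which build all cilia, gave 5 higher and 2 lower of 31, among them Wdr35 (0.99 ± 0.12), Traf3ip1 (1.10 ± 0.21), Ift57 (0.58 ± 0.11) and Ift52 (-0.59 ± 0.13). BBSome and transition zone genes, which sort proteins into cilia, gave 3 higher and 0 lower of 27: Tmem231 (0.89 ± 0.17), Bbs7 (0.50 ± 0.12) and Mkks (0.60 ± 0.16). Between the labels, 11 of the 56 other motile cilia genes were lower with 30 August and 0 higher, beside 10.4% lower and 10.1% higher of all genes, led by Tppp3 (-3.23 ± 0.55) and Tekt1 (-2.28 ± 0.52). Multiciliated cell regulators gave 2 higher, E2f5 (0.66 ± 0.12) and E2f4 (0.68 ± 0.16). In the controls the summed level of that list was 930 CPM on 30 August and 397 CPM on 3 September. The proliferation marker Mki67 was 868 and 60.0 CPM in the same libraries. The part of proliferation in the calls of this list was not tested. Dynein arm assembly factors gave 3 higher and 0 lower of 11, and intraflagellar transport genes 3 higher and 0 lower of 31. BBSome and transition zone genes gave 0 higher and 1 lower of 27.

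Markers of other cell types that such cultures can hold also moved with the hairpins. Neuroblast markers gave 6 lower of 7 (Dcx by -2.61 ± 0.41), oligodendrocyte precursor markers 3 lower of 6 (Gpr17 by -3.61 ± 0.40) and astrocyte markers 2 lower of 8 (Aqp4 by -2.59 ± 0.38). Summed astrocyte markers ran from 2157 to 8773 CPM in the controls, 2067 to 5327 CPM with sh900 and 1543 to 4259 CPM with sh902. Neural stem cell markers gave 2 higher (Nes and Vim) and 1 lower (Hes5) of 7. Choroid plexus markers gave 0 of 5 tested, and Ttr, which defines that tissue, did not exceed 0.114 CPM. Microglia markers summed to 3.34 CPM at most. Endothelial markers gave 1 lower of 2 tested (Kdr), and mural and fibroblast markers gave 1 lower of 5 (Pdgfrb). The part of these cell types in the rise of Ccdc153, Rsph1 and Cfap52 was not tested.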

How the data were processed

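The authors deposited estimated counts per gene for 9 libraries. Per the submitters' processing notes the tools were RSEM, STAR 2.5.0a, Trimmomatic 0.36, cutadapt and FastQC, and the build was GRCm38. No label states the annotation or how RSEM was set. The deposited counts were whole numbers. Symbols and coordinates were taken from GENCODE M21 by Ensembl identifier (54079 matched, 153 did not). Genes and lists were chosen with earlier results of these data known.

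Groups came from the treatment labels. R 4.3.3 and edgeR 4.0.16 were used: filterByExpr by group (a level of 0.376 CPM in 3 libraries; 17602 genes holding 99.9% of counts), TMM factors, the robust quasi-likelihood F test over all 9 libraries and Benjamini-Hochberg adjustment over all tested genes, with calls at 0.05. Standard errors are the log2 fold change over the square root of F. The planned main model had group alone. Of the genes tested, 7 of the 44 reached the filter level in fewer than 2 controls.

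Pairing was checked by correlating deviations from group means. Libraries sharing a date in their titles gave r of 0.402 to 0.645, undated libraries 0.0799 to 0.399, and libraries with different labels -0.661 to 0.302. A shared date was therefore taken as a pairing, while for undated libraries a pairing is uncertain. The block in the text nevertheless holds all 3 labels, and its values were compared with those of a block over the 6 dated libraries. A chi-square comparison of counts found no duplicated library.

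Named genes were those the symbol rule lists by name, the 10 highest by mean CPM, the 8 largest rises and 8 largest falls in the blocked fit, called genes, genes with no count, and up to 4 called genes of each other list with its defining markers. Alternatives were RLE factors, library size alone, other filters, DESeq2 1.42.0, limma-voom (limma 3.58.1), the RefSeq symbol table (58 symbols, 56 shared), the dated libraries alone, only the groups compared and each library left out. The scripts were tested on simulated data.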

Additional observations from a re-analysis of the deposited data

How the results depend on the processing

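Without the block, 0 genes were called for the hairpins under each scaling and filter tried, limma-voom, the dated libraries alone and only the groups compared, while DESeq2 called 4 higher for the mean, 4 for sh900, 3 for sh902 and 1 for sh902 over sh900. With the replicate block, edgeR called 3 higher for the mean, 3 for sh900, 4 higher and 1 lower for sh902, and 1 higher between hairpins, where the other blocked scalings, filters and tools gave 2 to 6 higher and 0 to 2 lower for the mean, 2 to 5 and 0 to 1 for sh900, 3 to 5 and 1 to 2 for sh902, and 1 to 2 and 0 to 2 between hairpins. The blocked fit of only the groups compared gave 0 higher and 1 lower for sh900 and 0 for sh902, and that of the dated libraries 0 throughout. Library size alone left 1 of the 2 genes higher with 30 August. Values under 1 CPM rest on few counts.

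Leaving out 1 library, over both fits, gave 0 to 4 higher and 0 to 2 lower for the mean, 0 to 4 and 0 to 1 for sh900, 0 to 5 and 0 to 2 for sh902, 0 to 1 and 0 to 2 between hairpins, and 0 to 2 and 2 to 13 for the labels.

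Some genes changed sign for the mean of both hairpins. Library size alone gave Rsph3a -0.0032 and the filter of 1 CPM gave -0.0085. No filter gave Cfap45 0.072 and Cfap43 0.021, and with the block Dnah11 0.057, Rsph3b 0.027 and Cfap43 0.044. Limma-voom gave Dnah11 0.90 and Cfap43 0.018, and 0.0076 for Cfap43 with the block, where DESeq2 gave Dnah11 0.15. The 6 dated libraries gave Cfap298 -0.013, Cfap45 0.30, Dnah9 0.037 and Rsph3a -0.034, and with the block Dnah11 0.47, Cfap45 0.29, Dnah9 0.17 and Rsph3a -0.0010. The cause was not tested.

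Omitting single libraries also turned signs, with ranges of -0.19 to 0.51 for Cfap126, -0.0065 to 0.32 for Cfap298, -0.18 to 0.24 for Cfap300, -0.28 to 0.33 for Cfap43, -0.56 to 0.42 for Cfap45, -0.19 to 0.63 for Cfap54, -1.23 to 1.16 for Dnah11, -0.82 to 0.33 for Dnah17, -1.78 to 0.67 for Dnah5, -2.75 to 1.2 for Dnah6, -0.72 to 0.64 for Dnah9, -0.76 to 0.10 for Dnali1, -0.10 to 0.33 for Dynlrb2, -0.16 to 0.24 for Rsph3a and -0.54 to 0.63 for Rsph3b.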
